A study of Mus musculus with 8 samples.

Results

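Cdkn1a, Cdkn2a, Cdkn2b, Mdm2, Gadd45a, Gadd45b, Trp53inp1, Ccng1, Bax and Phlda3 are genes of cell cycle arrest and senescence, most of them targets of the transcription factor p53, and their RNA levels were compared array by array between the RPE/choroid of old and of young mice. The 10 genes were chosen by name and measured by every probe set that the array annotation assigns to 1 of them alone. These came to 17 probe sets of 9 genes, out of 45037 probe sets and 18193 genes on the array. Bax, which encodes a protein that permeabilizes the outer mitochondrial membrane in apoptosis, had no probe set assigned to it alone in the annotation used and was not analysed here. The RPE/choroid, the retinal pigment epithelium with the vascular layer beneath it, came from male C57BL/6 mice of no stated genetic modification. The old animals were 26 months of age and the young animals 4 months, with 4 Affymetrix Mouse 430 2.0 arrays per age. RNA of 4 RPE/choroids from 2 animals was pooled for each array, so each replicate is an average over those animals and the spread between single animals was not measured. The values are linear intensities as deposited, and log2 of them was tested with limma.

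p53 is held at a low level by Mdm2, a ubiquitin ligase that p53 itself induces, and is released from it when DNA is damaged or the cell is stressed. It then raises transcription of genes that stop the cell cycle, repair DNA or start apoptosis. Lasting arrest with secretion of cytokines and proteases is called senescence, and it is held by p21, the product of Cdkn1a, and by p16 and p19Arf, the products of Cdkn2a. In the RPE, a layer of cells that normally do not divide, these genes have been studied in relation to oxidative stress and aging.

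The sequences before the transcription starts of Cdkn1a, Gadd45a and Mdm2 are shown because Cdkn1a and Gadd45a had the largest log2 fold changes of the measured genes by their brightest probe set, and Mdm2 is the feedback regulator. Each run is the 250 bases before a start as RefSeq places it on the mouse build GRCm38.p6, written 5' to 3' on the gene's own strand, and capitals mark matches to the 10-base p53 half-site consensus, which reads the same on both strands.
Cdkn1a, upstream start, chr17:29090729-29090978, plus strand: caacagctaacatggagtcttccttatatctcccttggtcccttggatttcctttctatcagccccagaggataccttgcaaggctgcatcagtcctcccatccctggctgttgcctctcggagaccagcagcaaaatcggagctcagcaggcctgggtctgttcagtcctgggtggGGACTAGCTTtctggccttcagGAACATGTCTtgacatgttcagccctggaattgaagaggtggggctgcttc
Cdkn1a, downstream start, chr17:29093519-29093768, plus strand: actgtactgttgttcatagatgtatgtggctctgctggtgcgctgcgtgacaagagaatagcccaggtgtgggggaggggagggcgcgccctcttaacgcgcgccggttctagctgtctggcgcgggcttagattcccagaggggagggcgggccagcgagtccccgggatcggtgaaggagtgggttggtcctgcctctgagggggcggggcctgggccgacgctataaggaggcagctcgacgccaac
Gadd45a, chr6:67037408-67037657, minus strand: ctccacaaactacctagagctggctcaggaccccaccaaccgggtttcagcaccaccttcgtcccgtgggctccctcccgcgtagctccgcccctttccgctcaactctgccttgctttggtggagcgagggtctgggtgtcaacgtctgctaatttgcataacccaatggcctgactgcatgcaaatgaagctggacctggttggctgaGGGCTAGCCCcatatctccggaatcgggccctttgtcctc
Mdm2, chr10:117710759-117711008, minus strand: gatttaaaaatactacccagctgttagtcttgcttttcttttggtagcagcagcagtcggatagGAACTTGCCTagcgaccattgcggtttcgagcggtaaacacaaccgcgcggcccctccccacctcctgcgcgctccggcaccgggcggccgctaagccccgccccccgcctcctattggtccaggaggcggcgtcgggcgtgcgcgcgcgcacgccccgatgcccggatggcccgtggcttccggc
The upstream window of Cdkn1a held 2 exact matches, GGACTAGCTT and GAACATGTCT, separated by 12 bases, and the window before its downstream start held none. The run TGACATGTTC, directly after GAACATGTCT, misses the consensus in its first base alone and was not marked. Which of these runs form a p53 element was not tested. Of all 32851 windows in the RefSeq table, 7.13% held at least 1 exact match. In 0.0639% (21 windows) 2 exact matches had 0 to 13 bases between them, the spacing allowed in a full p53 element. GGGCTAGCCC lay 40 bases before the Gadd45a start, counted to its first base, and GAACTTGCCT lay 186 bases before that of Mdm2. Ccng1 had GGGCAAGCCT and Bax AGGCAAGCTT, while the windows of Cdkn2a, Cdkn2b, Gadd45b and Phlda3 had no match. In all, 5 of 11 windows held a match, and 9 of the 10 genes had a window. A match is a run of letters and no measurement of p53 binding. Only these windows were searched, so sites farther upstream or after a start, as in introns, would be missed.

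In the RPE/choroid of old animals, 5 of the 9 measured genes were higher and 0 were lower at an adjusted p under 0.05, with each gene read by its brightest probe set, the one of highest mean log2 value. The 5 were Cdkn1a, Gadd45a, Trp53inp1, Phlda3 and Mdm2. Cdkn2a, Cdkn2b, Ccng1 and Gadd45b did not pass, though another probe set of Gadd45b did. Over all genes, 11.8% were higher and 9.56% lower by the same rule. That balance depended on the scaling, with 2145 genes higher and 1739 lower as deposited, 1921 and 2053 after quantile normalization, and 2478 and 1345 after median centring, where 5, 5 and 6 of the 9 genes were higher and 0 lower. With dim probe sets dropped, 2419 of the 12214 genes left were higher and 1894 lower, larger shares than over all genes. There 6 of the target genes were higher and 0 lower, with Cdkn2a dropped as dim. The median log2 fold change was 0.23 for the 9 genes and -0.02 for all 18193 genes. At an unadjusted p under 0.05 in limma, 6 of the 9 were higher and 0 lower, against 18.5% and 18.9% of all genes. Without young replicate 3 the count higher was 3, Mdm2 and Phlda3 no longer passing. Over all genes that fit called 1493 higher, against 2145 with all arrays. In bulk tissue, more cells of a type that expresses a gene and more of its RNA per cell cannot be told apart.

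**Figure D1:**
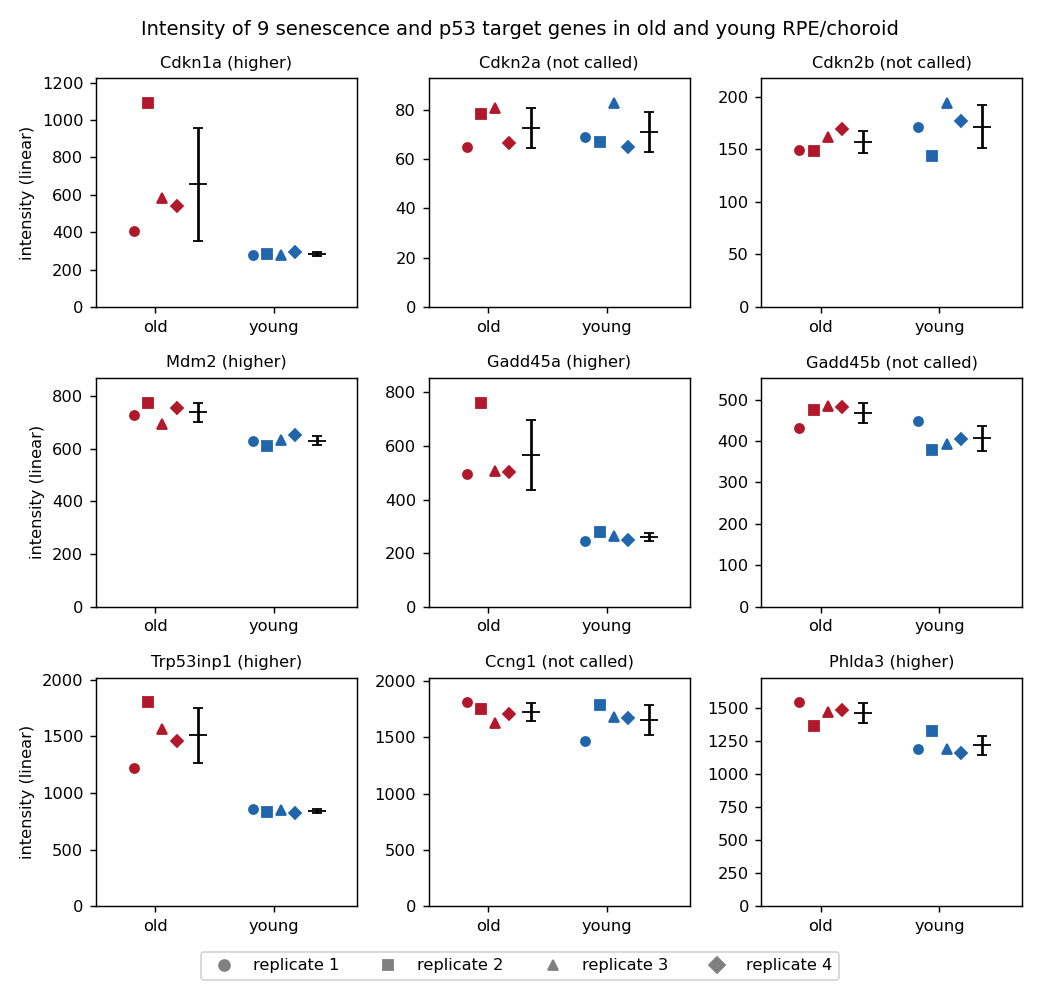
Linear intensity (vertical axes, each from 0) of the brightest probe set of each of 9 genes, in 4 old arrays (red) and 4 young arrays (blue). The marker shape gives the replicate number, and the bar gives the mean and the SD. The old arrays of Cdkn1a spread from 408 to 1091 and all lie above the young ones at 278 to 296, while those of Cdkn2a, at 64.8 to 80.8, lie among the young ones at 64.7 to 82.7.

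Cdkn1a encodes p21, which inhibits cyclin-dependent kinases and is the best known p53 target. Its probe set 1424638_at read 408, 1091, 583 and 539 in old replicates 1 to 4, against 278, 283, 279 and 296 in young replicates 1 to 4. All old arrays lay above all young ones, and the old arrays were far more spread, with replicate 2 the highest and replicate 1 the lowest. The means were 655 ± 299.6 in old and 284 ± 8.21 in young animals (SD, n = 4 each), a 2.15-fold difference of the geometric means and a log2 fold change of 1.11 (SE, the standard error, 0.24, 95% interval 0.56 to 1.66, limma adjusted p = 0.0152). The probe set 1421679_a_at gave 322, 955, 427 and 375 in old, against 183, 198, 185 and 167 in young animals. It showed the same order of the old arrays at the ends, and its log2 fold change was 1.36 (SE 0.29, limma adjusted p = 0.0124). Without old replicate 2 the log2 fold change of 1424638_at was 0.83 (SE 0.12, limma adjusted p = 0.00374).

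Cdkn2a and Cdkn2b lie side by side on chromosome 4 and encode inhibitors of the cyclin D kinases, and Cdkn2a is a widely used marker of senescence in mice. Cdkn2a, by 1450140_a_at, read 64.8, 78.1, 80.8 and 66.6 in old, against 69.1, 66.9, 82.7 and 64.7 in young animals. The ages overlapped fully, with a young array the highest of all 8 and another the lowest. Its log2 fold change was 0.03 with a 95% interval of -0.19 to 0.26 (limma adjusted p = 0.842), and a difference within that interval could not be told from none with these arrays. The probe set was dim, at the 30.1 percentile of all probe sets and below the array medians of 129 to 135. How much of its reading was background was not tested. The probe set does not tell the p16 transcript from that of p19Arf here, since the annotation used names only the gene. Cdkn2b, which encodes p15, read 149, 148, 162 and 169.7 in old, against 171, 144, 194 and 177 in young animals (1449152_at). The ages overlapped, with means of 157 ± 10.6 in old and 172 ± 20.8 in young animals (SD, n = 4 each), and the log2 fold change was -0.12 with a 95% interval of -0.33 to 0.09 (limma adjusted p = 0.4).

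Gadd45a and Gadd45b are small stress-induced proteins that bind cell cycle kinases and act on the p38 and JNK kinase pathways. Gadd45a is a p53 target, whereas Gadd45b is known mostly as a target of NF-kB and TGF-beta signaling. Among the brightest probe sets of the 9 genes, that of Gadd45a had the smallest p. It read 494, 762, 508 and 501 in old, against 245, 278, 263 and 249 in young animals (1449519_at). All old arrays lay above all young ones, with old replicate 2 well above the other old arrays, which were close together. The means were 566 ± 131 in old and 259 ± 14.9 in young animals (SD, n = 4 each), a 2.15-fold difference and a log2 fold change of 1.11 (SE 0.13, limma adjusted p = 0.000832). Without old replicate 2 it was 0.96 (SE 0.06, limma adjusted p = 0.000209). Gadd45a was the 1 gene of the 9 whose brightest probe set passed the study's stricter thresholds here, a fold change over 2 and an adjusted p under 0.01. On the higher side 1.13% of all genes passed them. The study had first removed probe sets Absent in all samples, which was not repeated. With dim probe sets dropped, Cdkn1a passed them too (1424638_at, log2 fold change 1.11, limma adjusted p = 0.00707), as it did with array weights (1.07, limma adjusted p = 0.0061).

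The 3 probe sets of Gadd45b differed. The brightest, 1450971_at, read 431, 476, 484 and 481 in old, against 449, 378, 394 and 406 in young animals. Old replicates 2 to 4 lay above all young arrays and old replicate 1 lay below young replicate 1, and the log2 fold change of 0.20 (95% interval 0.05 to 0.36) missed the threshold (limma adjusted p = 0.073), which it passed without old replicate 1 (0.0448) or young replicate 1 (0.043). The probe set 1449773_s_at read 265, 359, 419.8 and 355 in old, against 173, 172, 146 and 141 in young animals. Here the ages did not overlap, the means were 349.6 ± 63.6 in old and 158 ± 16.8 in young animals (SD, n = 4 each), and the log2 fold change was 1.14 (SE 0.13, limma adjusted p = 0.000745), past the stricter thresholds too, as 0.764% of all probe sets were on the higher side. The dimmest, 1420197_at, read 56.6 to 62.4 in old and 55.1 to 58.5 in young animals, with a log2 fold change of 0.06 (95% interval -0.06 to 0.18, limma adjusted p = 0.495). Within each array, the log2 value of 1449773_s_at minus that of 1450971_at lay between -0.70 and -0.21 in old and between -1.53 and -1.14 in young animals, and its mean differed by 0.93 between the ages, a description of a pair picked after its values were seen. The suffix s_at marks probes that can match transcripts of more than 1 gene, and which transcripts these probes read was not tested. The mean over the 3 probe sets gave a log2 fold change of 0.47 (limma adjusted p = 0.00219).

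**Figure D2:**
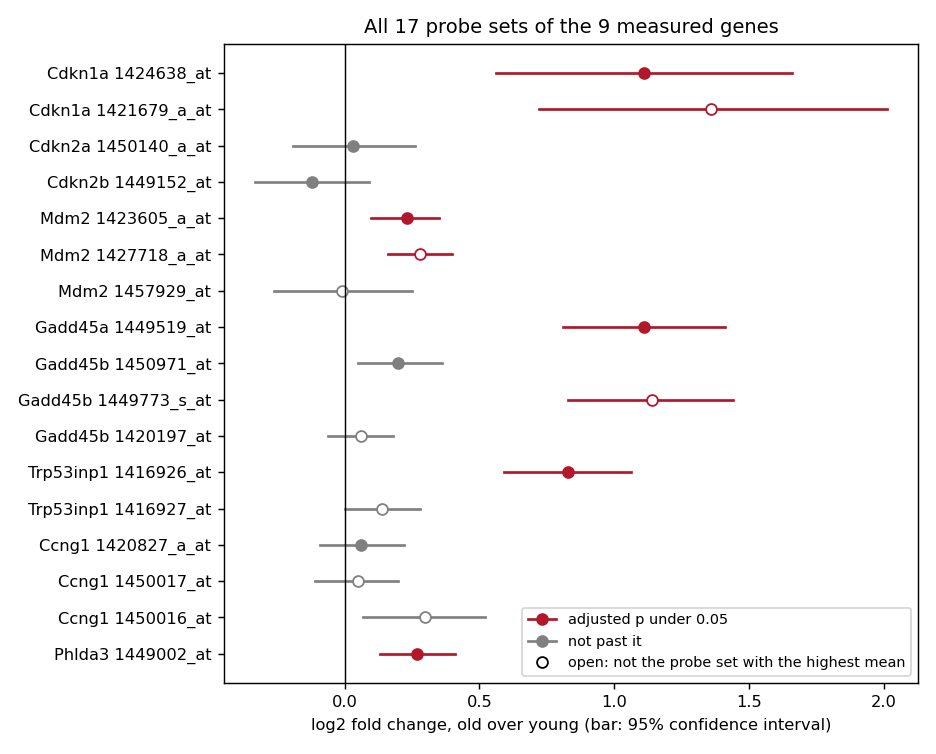
Log2 fold change of old over young animals (horizontal axis) with its 95% confidence interval for the 17 probe sets of the 9 genes, red where the adjusted p from limma is under 0.05 and grey where it is not. Filled points are the brightest probe set of each gene; 8 probe sets are red, and all 8 lie to the right of 0.

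Trp53inp1 is a p53-induced nuclear protein that slows proliferation and takes part in autophagy and in the response to oxidative stress. Its brighter probe set, 1416926_at, read 1217, 1801, 1565 and 1459 in old, against 859, 832, 849 and 827 in young animals. No old array came near the young ones, and the old arrays had the same highest and lowest replicates as for Cdkn1a. The means were 1511 ± 242 in old and 842 ± 15.0 in young animals (SD, n = 4 each), a 1.78-fold difference and a log2 fold change of 0.83 (SE 0.10, limma adjusted p = 0.00104). The dimmer 1416927_at read 121, 135, 118 and 124 in old, against 112, 106, 117 and 116 in young animals. The ages did not overlap there either, but the gap was small and the log2 fold change of 0.14 (95% interval 0.00 to 0.28) missed the threshold (limma adjusted p = 0.146). The log2 difference between these probe sets within an array was 3.33 to 3.73 in old and 2.83 to 2.97 in young animals, 0.69 apart on average, again a pair picked after its values were seen.

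Mdm2 and Ccng1 act back on p53 itself. Mdm2 marks p53 for degradation, and its probe set 1423605_a_at read 727, 776, 696 and 756 in old, against 628, 611, 635 and 651 in young animals. All old arrays lay above the young ones by a small margin, at 739 ± 34.9 in old and 631 ± 16.2 in young animals (SD, n = 4 each), and the log2 fold change was 0.23 (SE 0.05, limma adjusted p = 0.0216). The probe set 1427718_a_at read 302, 309.9, 285 and 284 in old, against 246, 247, 240.4 and 238 in young animals, with a log2 fold change of 0.28 (SE 0.05, limma adjusted p = 0.0071). The dim 1457929_at, at 32.2 to 39.0 in old and 31.3 to 44.3 in young animals, had a log2 fold change of -0.01 (95% interval -0.26 to 0.25, limma adjusted p = 0.978). The call of 1423605_a_at was lost without old replicate 2 (adjusted p = 0.0524), old replicate 4 (0.0566), young replicate 1 (0.0523) or young replicate 3 (0.0558), and by the mean of the 3 probe sets (log2 fold change 0.17, adjusted p = 0.063), all from limma.

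Ccng1, cyclin G1, brings a phosphatase to Mdm2 and is induced by p53 in many mouse tissues. Its brightest probe set, 1420827_a_at, read 1813, 1753, 1631 and 1707 in old, against 1471, 1786, 1682 and 1673 in young animals. The ages overlapped and the log2 fold change was 0.06 (95% interval -0.09 to 0.22, limma adjusted p = 0.556). The probe set 1450017_at also overlapped, at 622 to 759.6 in old and 642 to 669 in young animals, with a log2 fold change of 0.05 (95% interval -0.11 to 0.20, limma adjusted p = 0.681). The probe set 1450016_at read 394, 386, 375 and 348 in old, against 342, 349, 286 and 256 in young animals. Old replicates 1 to 3 lay above all young arrays and replicate 4 just below the highest of them, and the log2 fold change of 0.30 (95% interval 0.07 to 0.52) missed the threshold (limma adjusted p = 0.0746).

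Phlda3 encodes a p53-induced protein that competes with the kinase Akt for membrane lipids and so restrains survival signaling. It read 1544, 1362, 1468 and 1487 in old, against 1193, 1324, 1191 and 1158 in young animals (1449002_at). The ages did not overlap, the lowest old array was replicate 2 and the highest replicate 1, a different order from Cdkn1a and Trp53inp1. The means were 1465 ± 76.1 in old and 1216 ± 73.3 in young animals (SD, n = 4 each), a log2 fold change of 0.27 (SE 0.06, limma adjusted p = 0.0202). Leaving out old replicate 3 gave a limma adjusted p of 0.0528, and leaving out young replicate 1, 3 or 4 gave 0.0526, 0.0583 or 0.0553, while the log2 fold change was 0.24 to 0.31 over all such fits.

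**Figure D3:**
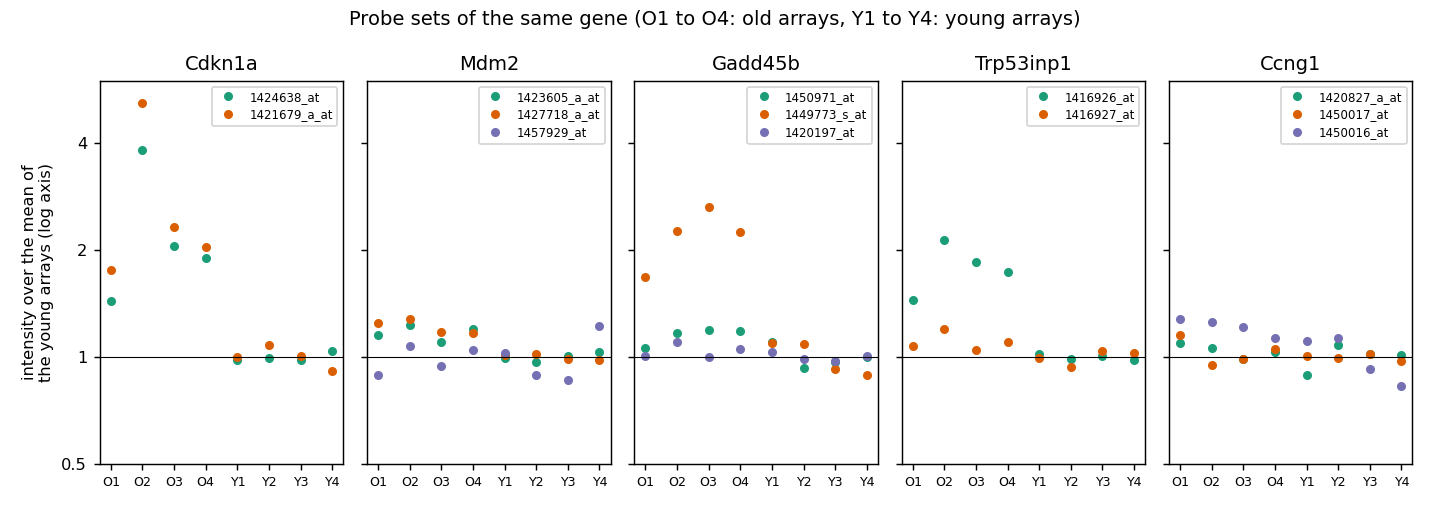
Intensity over the mean of the 4 young arrays (vertical log axis) for each probe set of the 5 genes that had more than 1, in old arrays O1 to O4 and young arrays Y1 to Y4, with 1 colour per probe set. The pair for Cdkn1a moves together, while for Gadd45b and Trp53inp1 1 probe set stands well above the others in all 4 old arrays.

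By probe set, 8 of the 17 were higher and 0 lower, against 9.22% higher and 8.75% lower of all 45037. At an unadjusted p under 0.05 in limma the number lower was also 0, against 18% of all probe sets. Counting a gene by any of its probe sets gave 6 of 9 higher, against 15.2% of all genes. The 4 old arrays all lay above the 4 young arrays for 5 of the 9 genes, against 15.8% of all genes, and for 0 of the 9 they all lay below, against 13.7% of all genes. Old replicate 2 was the highest array for 4 of the 5 genes that were higher, Phlda3 being the exception, and old replicate 1 was the lowest old array for 3 of the 5.

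The other genes of the p53 pathway passed in both directions. Of 35 listed, 33 were measured, and 6 of these (18.2%) were higher, 3 lower and 24 not past the threshold. Of all genes, 11.8% were higher and 9.56% lower, the shares to set beside this and each later list. The median log2 fold change of the 33 was 0.06. Pmaip1, which encodes the proapoptotic protein Noxa, read 146, 191, 186 and 151 in old, against 94.9, 93.9, 84.4 and 87.3 in young animals. The ages were far apart and the log2 fold change was 0.90 (SE 0.10, limma adjusted p = 0.000479). Plk3, a stress-activated kinase, had a log2 fold change of 0.41 (limma adjusted p = 0.00211) and Zmat3, an RNA-binding p53 target, one of 0.26 (limma adjusted p = 0.00922). Trp53inp2, an autophagy regulator related to Trp53inp1, went the other way, with 1323, 1169, 1255 and 1346 in old, against 1562, 1550, 1578 and 1569 in young animals (log2 fold change -0.30, limma adjusted p = 0.0086). Among genes named after their values were seen, Gadd45g, the third Gadd45 gene, was at 0.57 and Ccng2, the relative of Ccng1, at 0.31, whereas Sesn2, which restrains mTORC1 signaling, was at -0.29, all past an adjusted p of 0.05. Also past it were Eda2r, higher at 0.44, and Tnfrsf10b, lower at -0.45, both read by dim probe sets below the array medians.

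Among 18 other inhibitors of cyclin-dependent kinases and genes of the RB axis, 6 were higher (33.3%), 2 lower and 10 not past the threshold. The RB axis is the brake on entry into S phase. Cdkn1c, which encodes p57, a relative of p21, read 1620, 1873, 2140 and 1756 in old, against 1132, 1141, 1104 and 1146 in young animals. The ages were well apart, with a log2 fold change of 0.70 (limma adjusted p = 0.000696). E2f2, an E2F transcription factor, read 119.7, 248, 130.2 and 118 in old, against 65, 61.8, 70.2 and 63.8 in young animals, a log2 fold change of 1.17 (limma adjusted p = 0.00646). As with Cdkn1a, old replicate 2 was the highest. E2f3 was higher by its brightest probe set (0.26, limma adjusted p = 0.0197) and lower by the other (-0.44, limma adjusted p = 0.0131), and Ccnd1, cyclin D1, lower (-0.47, limma adjusted p = 0.02). Of 11 genes of the BCL2 family, to which Bax belongs, 3 were higher (27.3%) and 1 lower. The 3 were Bcl2l11 (0.58), Mcl1 (0.37) and Bcl2l1 (0.26), and Bok was the 1 lower (-0.23). Without old replicate 2 the kinase inhibitors and RB genes had 5 higher and 0 lower, and the BCL2 family 2 and 2. Over all genes that fit called 1691 higher and 1137 lower, against 2145 and 1739 with all arrays. Bcl2l11 encodes the proapoptotic Bim, whereas Mcl1 and Bcl2l1 encode proteins that protect from apoptosis, and Bok a relative of Bax.

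Of 33 secreted or surface factors of senescent cells, 30 were measured, and 15 of them were higher, 0 lower and 15 not past the threshold. The share higher was 50%, against 11.8% of all genes, and the median log2 fold change was 0.40. The list was written with earlier results of these data known. It holds genes that the study reported as raised from these arrays, such as Mmp3, Mmp13 and Icam1, so the share is no test of the list. Mmp3, a matrix metalloprotease, read 2996, 3290, 3995 and 3431 in old, against 223, 423, 313 and 296 in young animals, a log2 fold change of 3.48 (limma adjusted p = 2.59e-05). Mmp13, a collagenase, had a log2 fold change of 3.02 (adjusted p = 0.000163), Icam1, a leukocyte adhesion molecule, one of 1.14 (adjusted p = 3.69e-05) and Ccl7, a monocyte chemokine, one of 0.56 (adjusted p = 0.000151, all from limma). Il6, the cytokine most often named for senescent cells, read 18.8 to 35.3 in old and 16 to 21.8 in young animals and did not pass (0.43, limma adjusted p = 0.127). Many of these factors are made by macrophages too. Of 12 macrophage markers 9 were higher and 0 lower, with a summed intensity of 40748 to 43301 in old and 25254 to 28538 in young animals, none of the 12 was at 0, and their part in the levels of the secreted factors or of Cdkn1a was not tested.

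**Figure D4:**
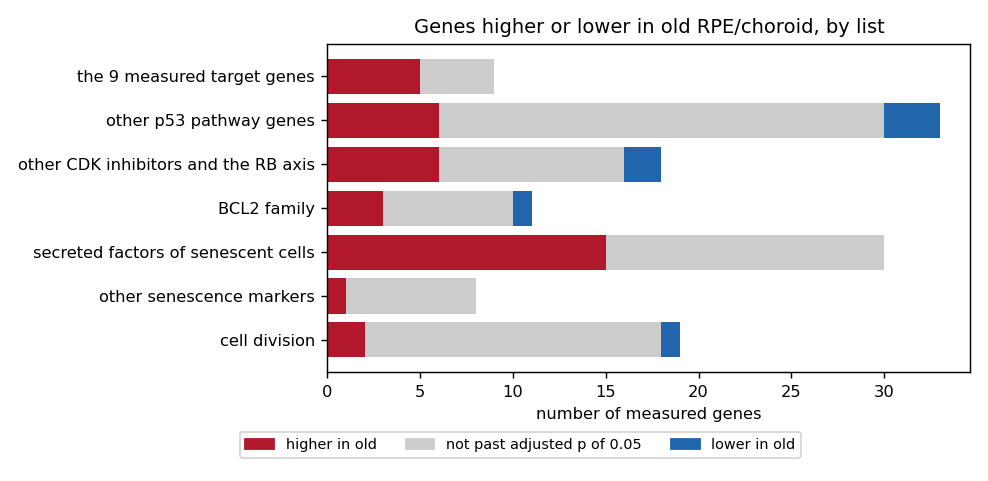
Number of measured genes (horizontal axis) in each of 7 lists that were higher (red), not past an adjusted p of 0.05 in limma (grey) or lower (blue) in old than in young animals. The 9 target genes have 5 higher and 0 lower, the secreted factors 15 and 0, and the other p53 pathway genes 6 and 3.

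Of other senescence markers 12.5% were higher and of cell division genes 10.5%, near the 11.8% of all genes. Of 8 measured senescence markers, Cbx7, a Polycomb protein that represses Cdkn2a, was the 1 gene higher (0.20, limma adjusted p = 0.047), and 0 were lower. Lmnb1, the nuclear lamin that is lost from senescent cells, read 324 to 345 in old and 330 to 383 in young animals (log2 fold change -0.11, limma adjusted p = 0.228). Of 19 genes of cell division, Mcm3 (0.21) and Pcna (0.17), which serve DNA replication, were higher (of 5 probe sets of Mcm3, 4 were higher and 1 lower), Foxm1 (-0.17), a transcription factor of mitotic genes, was lower, and 16 did not pass. Without old replicate 2, 0 of the senescence markers and 1 of the cell division genes were higher, and 0 of either were lower.

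The pattern over the 8 arrays was compared with that of 18184 other genes as the root mean square difference of log2 values centred on each gene's mean. This distance includes the difference in log2 fold change between the ages, so genes of unlike fold change lie apart by it alone. For Cdkn1a the closest genes were E2f2 (0.14), Slc10a6, a sulfated steroid transporter (0.15), Gda, guanine deaminase (0.16), Camp, the cathelicidin of neutrophil granules (0.17), and Ccl6, a chemokine of myeloid cells (0.18). Slc10a6 shared the raised old replicate 2, at 104, 287, 189 and 165 in old, against 76.4, 65.5, 76.0 and 73.2 in young animals. For Gadd45a they were Rassf5 (0.08), Mcemp1 (0.10), Arrb2 (0.11), AB124611 (0.12) and Ikzf1 (0.13). Among the 9 genes themselves, Gadd45a lay at 0.21 from Cdkn1a and Trp53inp1 at 0.28 from Cdkn1a and 0.19 from Gadd45a, while the other 6 lay at 0.56 to 0.74 from Cdkn1a and at 0.47 to 0.67 from Gadd45a.

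The high array of Cdkn1a and Gadd45a, old replicate 2, also stood apart in some markers of another cell type. The summed intensity of 8 neutrophil markers was 1472, 17768, 2597 and 2716 in old, against 1112, 1316, 1368 and 1391 in young animals. Old replicate 2 read 7828 for S100a8, a calcium-binding protein abundant in neutrophils, and the other old arrays 346 to 888. S100a9, its partner, read 7062 there and 229 to 771 in the other old arrays, and Ngp, a granule protein, 1496 and 169 to 185. Not every marker stood apart, as Elane, neutrophil elastase, read 189 there, below the remaining old arrays at 192 to 215, and Mpo, myeloperoxidase, read 201 there and 158 to 191 in the remaining ones. Cdkn1a, Gadd45a and Trp53inp1 stayed higher without that array, with log2 fold changes of 0.83, 0.96 and 0.74. Of 10 glucocorticoid-responsive genes, 7 were higher and 0 lower, and 5 and 0 without old replicate 2. Cdkn1c, counted above among the kinase inhibitors, is 1 of the 7. Fkbp5, a chaperone of the glucocorticoid receptor, read 620.4, 1394, 1420 and 1061 in old and 331 to 373 in young animals. The mean centred log2 value of the 10 genes was -0.02, 0.60, 0.52 and 0.38 in old and -0.47 to -0.25 in young animals. Old replicate 1 was thus the lowest old array, as it was for Cdkn1a, Gadd45a and Trp53inp1. That of the 9 target genes was 0.06, 0.38, 0.20 and 0.17 in old, against -0.22, -0.22, -0.16 and -0.22 in young animals. The part of neutrophils in the height of old replicate 2, and of glucocorticoid signaling in the order of the old arrays, was not tested.

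**Figure D5:**
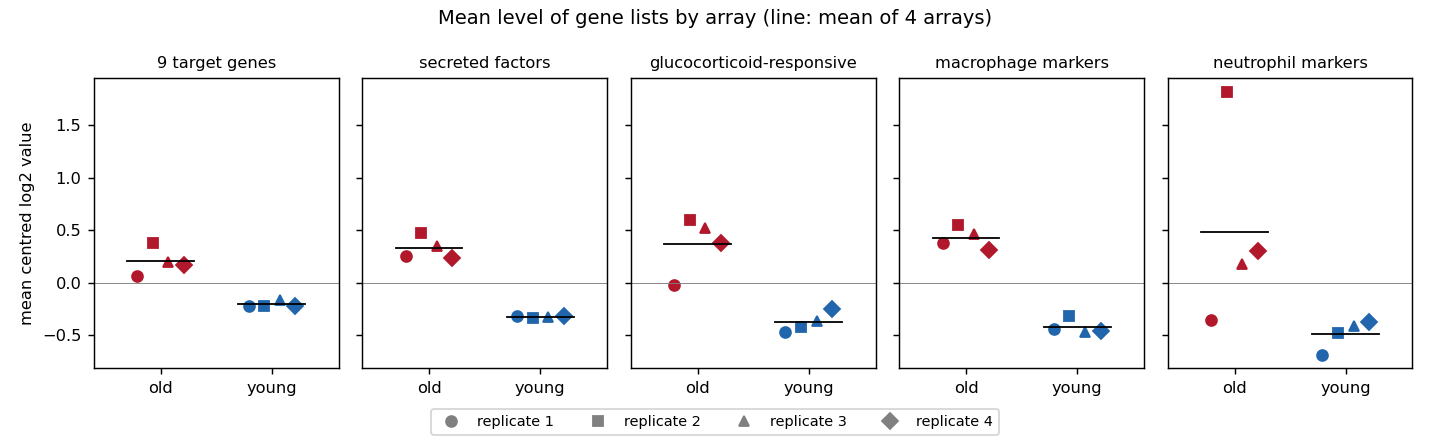
Mean log2 value of each list, centred per gene on its mean over the 8 arrays (vertical axis), in 4 old arrays (red) and 4 young arrays (blue), for the 9 target genes and 4 other lists; the line gives the mean of 4 arrays. Old replicate 2 is the highest array in every panel, at 0.38 for the target genes and 1.82 for the neutrophil markers.

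All 12 RPE markers, checked against the tissue label, were present at intensities of at least 162, with a sum of 95547 to 102784 in old and 109140 to 110965 in young animals. Of them 6 were lower in old animals (3 without old replicate 2) and 0 higher, among them Tyr, tyrosinase of pigment synthesis (-0.41, limma adjusted p = 0.00343), and Rlbp1, the retinaldehyde-binding protein (-0.27, limma adjusted p = 0.0102). Of 10 endothelial markers 8 were lower and 0 higher. Whether a change in the share of these cells bears on Cdkn1a, Gadd45a or Trp53inp1 was not tested.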

How the data were processed

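RNA of RPE/choroid from 4 old and 4 young pools was measured on Affymetrix Mouse 430 2.0 arrays. The authors normalized the intensity values before deposit, and the table does not say how; their methods give RMA, invariant set normalization with a perfect match-only model, and BRB-ArrayTools. Array medians were 129 to 135. Values below 1 (8 to 14 per array) were raised to 1 ahead of the log2 step. limma 3.58.1 in R 4.3.3 (lmFit, eBayes) compared old with young over all 45037 non-control probe sets, with p-values adjusted by Benjamini-Hochberg and a call at an adjusted p under 0.05. The removal of probe sets Absent in all samples was not repeated. A single gene was named by 34945 probe sets, 932 named several and 9160 none. A gene was read by its brightest probe set (highest mean log2 over the 8 arrays). All 17 probe sets of the 9 measured genes were described. The plan was to name from each other list up to 4 called genes with the smallest adjusted p, or all where 5 or fewer were called. It was not kept for every list, as some such genes were left out and others named. For the 2 genes with the largest log2 fold changes, the 5 genes of closest pattern were named. The genes, lists and tests were chosen with earlier results of these data known, so no list was tested as a set. On simulated data for 45037 probe sets, the test called 99 of 100 simulated log2 changes of 1 and 83 of 100 of 0.5. The changes were placed only in probe sets above the median level, with the same normal spread in both ages. These rates do not extend to dim probe sets or to spreads as unequal as those of Cdkn1a. Alternatives were a higher floor, dropping dim probe sets, quantile normalization, median centring, array weights, a trended robust variance, a block for replicate number, other probe set rules and a stricter call, and each array was left out in turn. Scan dates were not used here, so batches were not examined.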

Additional observations from a re-analysis of the deposited data

Results flagged for a closer look

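Over 34 sets of 4 arrays of 1 age, 2 had a value far from the other 3 by Dixon's test at the 95% level, which chance gives in about 1 of 20. Old replicate 2 read 762 for Gadd45a, above the other old arrays at 494 to 508 (1449519_at). Old replicate 1 read 431 for Gadd45b, below the other old arrays at 476 to 484 (1450971_at).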

How the results depend on the processing

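The count of 5 genes higher was 3 with the replicate number as a block (Mdm2 at an adjusted p of 0.0599 and Phlda3 at 0.0638 were lost), 1 with the stricter thresholds of 2-fold and 0.01, and 3 to 6 when each array was left out in turn, 3 of them without young replicate 3. In all settings tried the count lower was 0. Arrays of the same number had residual correlations of 0.0971, 0.019, 0.0218 and 0.0427 across the ages, and 1 of 4 old and 1 of 4 young arrays correlated best with its own number, so the numbers were not taken to pair the samples. Cdkn1a, Gadd45a and Trp53inp1 passed the adjusted p of 0.05 in each of 16 alternatives (adjusted p 0.00374 to 0.0412, 0.000209 to 0.0048 and 0.000134 to 0.0059), with log2 fold changes of 0.83 to 1.30, 0.96 to 1.16 and 0.49 to 0.93. Gadd45b passed in 7, among them the filter on low values (0.0363), median centring (0.0431), trend with robust variance (0.0438), array weights (0.0279), and without old replicate 1 (0.0448) or young replicate 1 (0.043). The cause was not tested. Cdkn2a, not past the threshold in any of its 15 settings, changed sign to -0.02 with array weights and lay between -0.02 and 0.11 without an array. It was below the filter on low values and has no value there. Without old replicate 2, an alternative chosen after the data were seen, the secreted factors had 17 higher and 0 lower, the other p53 genes 5 and 2, the CDK inhibitors and RB axis 5 and 0 (6 and 2 with all arrays), and the BCL2 family 2 and 2 (3 and 1 with all arrays). Over all genes, 1739 were lower with 8 arrays. The count lower was 1766, 1137, 953 and 1432 without old replicates 1, 2, 3 and 4 in turn. It was 1068, 1731, 990.0 and 1119 without young replicates 1, 2, 3 and 4 in turn. The count higher was 2145 with 8 arrays and 1475 to 2215 without an array. Precision is limited by 4 pools per age.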

Other observations

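Among gene groups not described above, 2 of 14 immediate early genes were higher (14.3%, against 11.8% of all genes) and 0 lower in old animals. The 2 were Atf3, a stress-induced transcription factor (log2 fold change 0.89, limma adjusted p = 0.000399), and Ier3 (0.64, limma adjusted p = 0.0439). Without old replicate 2 the count higher was 1. The summed intensity of the 14 was 12366, 18232, 10338 and 10108 in old, against 9054, 12251, 16108 and 23276 in young animals, so that its highest array was young replicate 4. T cell markers were higher for 6 of 9 and lower for 0, with Il7r, the interleukin 7 receptor, at 1075 to 1829 in old and 188 to 306 in young animals. Of 6 plasma cell markers 2 were higher, Igha (4.58) and Jchain (3.88), and 1 lower, Prdm1 (-0.37), against 0 lower without old replicate 2. Of 8 neutrophil markers 2 were higher, S100a8 (2.78) and Camp (1.27), and 1 lower, Cxcr2 (-0.31).

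Of 9 markers of the inner retina and glia 4 were lower, among them the glial lipid carrier Fabp7 (-1.62), and Cartpt, a neuropeptide precursor (-2.65). The 1 that was higher, Thy1 (0.29), is also among the T cell markers counted as higher above. Of 7 rod markers 0 passed in either direction, and their sum varied within each age, at 7738, 11298, 7366 and 18257 in old, against 18811, 19140, 16298 and 9130 in young animals. Pdgfra (0.40) was the 1 of 7 fibroblast markers that was higher, and 0 were lower. Of 6 markers each of keratinised epithelium and of skeletal muscle 0 passed. Whether carried-over neural retina differs between the ages was not tested.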
